A study of Homo sapiens with 22 samples.

Results

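The genes described here are the HOX cofactors MEIS1, MEIS2, MEIS3, PBX2, PBX3, PBX4, PKNOX1 and PKNOX2, taken by name as 8 of the 19970 protein-coding genes on chromosomes 1 to 22 and X. For each gene, peaks over the gene or within 1 kb of it were collected from 18 deposited peak lists, and HOXD13 peaks within 500 kb of it were added. The lists come from A673 and CHLA10, established human Ewing sarcoma cell lines, and were made by CUT&RUN, in which an antibody directs micrococcal nuclease to chromatin and the released fragments are sequenced. Each of 4 histone marks (H3K4me3, H3K27ac, H3K4me1 and H3K27me3) was profiled in 2 libraries of each line, in cells labelled shNS. HOXD13 was profiled in 1 library of each line, and those libraries do not carry the shNS label, so a comparison of HOXD13 with a mark sets differently labelled cells side by side. Each group is thus 1 cell line, and nothing in the labels says whether its replicates were separate cultures. A further 4 IgG libraries were not analysed here.

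MEIS, PKNOX and PBX proteins are homeodomain proteins of the TALE class. MEIS and PKNOX proteins bind PBX proteins through their amino-terminal parts, and the resulting pairs join HOX proteins on DNA and sharpen the sites that HOX proteins select. HOXD13 is a posterior HOX protein of the limb bud and genital tubercle, and it is known to be expressed in Ewing sarcoma. H3K4me3 marks active or poised promoters, H3K27ac marks active promoters and enhancers, H3K4me1 marks enhancers and promoter edges, and H3K27me3 is laid down by Polycomb repressive complexes.

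In both lines the labelled cell type was checked on marker genes. H3K4me3 was called in both libraries of a line at 8 of 8 Ewing sarcoma markers in A673 and at 8 of 8 in CHLA10, among them CD99, NKX2-2 and NR0B1. H3K27ac was in both libraries as well at 5 of 8 in each line, with NKX2-2 and CCND1 among those without it in either. Over all genes, single libraries had H3K4me3 at 70.6% to 71.6% and H3K27ac at 38.1% to 53.8%. These marker counts alone therefore do not settle the cell type. Of 4 markers of other cell types, H3K4me3 was called at PECAM1, there with H3K27ac, and MYOD1 in A673 and at none in CHLA10, and their part in the results below was not tested. The lists held 17909 to 18497 H3K4me3 peaks in A673 and 21164 to 21384 in CHLA10. The H3K4me1 lists were the most unequal, covering 74.5 and 51.6 Mb in A673 and 9.63 and 11.3 Mb in CHLA10. HOXD13 had 7160 peaks in A673 and 2099 in CHLA10. The smallest p that an exact two-sided permutation test allows for 2 libraries against 2 is 0.33. Counts and levels are therefore given without a test, beside the same measures over all genes. Peak lists hold no read counts, and the depth behind a peak is unknown.

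Promoter sequences upstream of the annotated start were taken from RefSeq (GRCh38.p14) for 7 of the 8 genes, with PKNOX2 the gene not matched. The 4 printed below are the 250 bases before the start, read 5′ to 3′ on the strand of the gene, and capitals mark a motif that was searched for. MEIS1 (chr2:66434875-66435124, plus strand) is shown because it lies under a very long H3K4me3 peak in both lines. MEIS3 (chr19:47422234-47422483, minus strand) is shown because the marks around its starts differ between the lines. PKNOX1 (chr21:42974312-42974561, plus strand) and PBX2 (chr6:32190203-32190452, minus strand) are the members with the most and the fewest CpG dinucleotides in the promoter window.
MEIS1: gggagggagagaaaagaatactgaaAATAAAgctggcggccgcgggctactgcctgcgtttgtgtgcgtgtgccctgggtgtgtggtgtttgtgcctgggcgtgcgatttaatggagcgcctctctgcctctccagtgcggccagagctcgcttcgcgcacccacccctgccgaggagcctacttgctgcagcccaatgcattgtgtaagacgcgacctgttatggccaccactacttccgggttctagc
MEIS3: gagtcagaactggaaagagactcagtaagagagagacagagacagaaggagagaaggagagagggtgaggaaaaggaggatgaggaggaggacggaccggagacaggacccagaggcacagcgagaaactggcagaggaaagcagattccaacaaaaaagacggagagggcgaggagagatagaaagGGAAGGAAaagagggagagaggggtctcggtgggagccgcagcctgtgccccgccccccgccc
PKNOX1: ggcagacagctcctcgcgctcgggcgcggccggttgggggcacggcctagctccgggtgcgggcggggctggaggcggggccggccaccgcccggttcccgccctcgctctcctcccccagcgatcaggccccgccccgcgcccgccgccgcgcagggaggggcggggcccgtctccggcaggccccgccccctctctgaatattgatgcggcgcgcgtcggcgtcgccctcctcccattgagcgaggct
PBX2: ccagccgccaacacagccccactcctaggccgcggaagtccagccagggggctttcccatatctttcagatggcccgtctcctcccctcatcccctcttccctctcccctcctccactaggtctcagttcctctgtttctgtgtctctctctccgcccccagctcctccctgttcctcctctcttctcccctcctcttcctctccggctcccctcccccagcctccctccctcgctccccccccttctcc

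In the window from 250 bases before to 50 bases after the start, PKNOX1 held 46 CpG dinucleotides, PBX3 43 and PBX4 35, against a median of 14 over 35116 RefSeq promoters. MEIS1 held 18 and PBX2 held 8. H3K4me3 was called over the starts of all 5 genes in all 4 libraries. Motifs were searched on both strands: TGACAG, known for MEIS and PKNOX proteins, TGATTNAT, known for HOX with PBX, AATAAA and CGTAAA, known for posterior HOX proteins, and GGAAGGAA, a pair of the GGAA units that EWS-FLI1 is known to bind. MEIS1 held AATAAA 225 bases before its start, a motif found in 17.4% of all promoters. MEIS3 held GGAAGGAA 63 bases before its upstream start, a motif found in 3.67% of all promoters. PBX3 held TGACAG on the opposite strand 20 bases before its start, against 15.8% of all promoters. The downstream start of MEIS2 had TGATTNAT (2.82% of promoters) at 64 bases before it, overlapping 1 of 2 copies of AATAAA. No searched motif lay in the windows of PBX2, PBX4, PKNOX1, the upstream start of MEIS2 or the downstream start of MEIS3, and CGTAAA (3.12% of promoters) was in none.

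H3K4me3 was called at 8 of 8 cofactor genes in all 4 libraries, against 66.7% of all genes, so every member carried a promoter-type mark in both lines. No member had H3K4me3 in A673 only (1.68% of all genes) or in CHLA10 only (2.4%). H3K27ac was in all 4 libraries at 6 of 8, against 22.6% of all genes, and H3K4me1 in all 4 at 4 of 8, against 15.4%. H3K27me3 was in all 4 libraries at 1 of 8, PKNOX2, against 10.3% of all genes. Gene length bears on these shares. MEIS1, MEIS2, PBX3 and PKNOX2 are over 100 kb long, and among the 3351 genes of at least 100 kb the shares in all 4 libraries were 82.6% for H3K4me3, 58.7% for H3K27ac, 56.6% for H3K4me1 and 22% for H3K27me3.

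Of the 32 pairs of a gene with a mark, 19 were called in all 4 libraries, 3 in both A673 libraries and no CHLA10 library, 1 in both CHLA10 libraries and no A673 library, 5 in another mix and 4 in none. The A673-only calls were H3K27ac at MEIS3 (1 of 8 members, 8.66% of all genes) and H3K27me3 at MEIS2 and PBX3 (2 of 8, 5.1% of all genes and 11% of long genes). The CHLA10-only call was H3K27me3 at MEIS3 (1 of 8, 3.61% of all genes). No member had H3K27ac in CHLA10 only (4.81% of all genes), H3K4me1 in A673 only (16.3%) or H3K4me1 in CHLA10 only (0.411%).

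The share of a gene and its 1 kb flanks that lay under peaks of a mark is called the covered share below. It is 0 where a library had no peak, so the counts that follow include the pairs called in 1 line only. Both A673 libraries lay above both CHLA10 libraries in H3K4me1 at 6 of 8 members, MEIS1, MEIS3, PBX3, PBX4, PKNOX1 and PKNOX2, against 38.4% of all genes and 72.4% of long genes. The reverse was seen at 0 of 8, against 1.28% of all genes. The H3K4me1 lists as a whole differ in the same direction, and the part that list size has in this count was not tested. Over the 8 genes the median H3K4me1 covered share was 4.77% and 4.07% in the A673 libraries and 0.398% and 0.435% in the CHLA10 libraries. Over all genes it was 1.46% and 0 in A673, and 0 in both CHLA10 libraries. Over the long genes it was 2.49% and 1.43% in A673, and 0.283% and 0.338% in CHLA10. For H3K4me3, A673 lay above CHLA10 at MEIS3 (1 of 8, 24.4% of all genes) and below it at MEIS2 (1 of 8, 22.6%). For H3K27ac, A673 lay above at MEIS3 and PBX4 (2 of 8, 18.3%) and below at MEIS1 and MEIS2 (2 of 8, also 18.3%). For H3K27me3, A673 lay above at MEIS2, PBX3 and PKNOX2 (3 of 8, 9.17% of all genes and 21% of long genes) and below at MEIS3 (1 of 8, 8.83%).

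**Figure D1:**
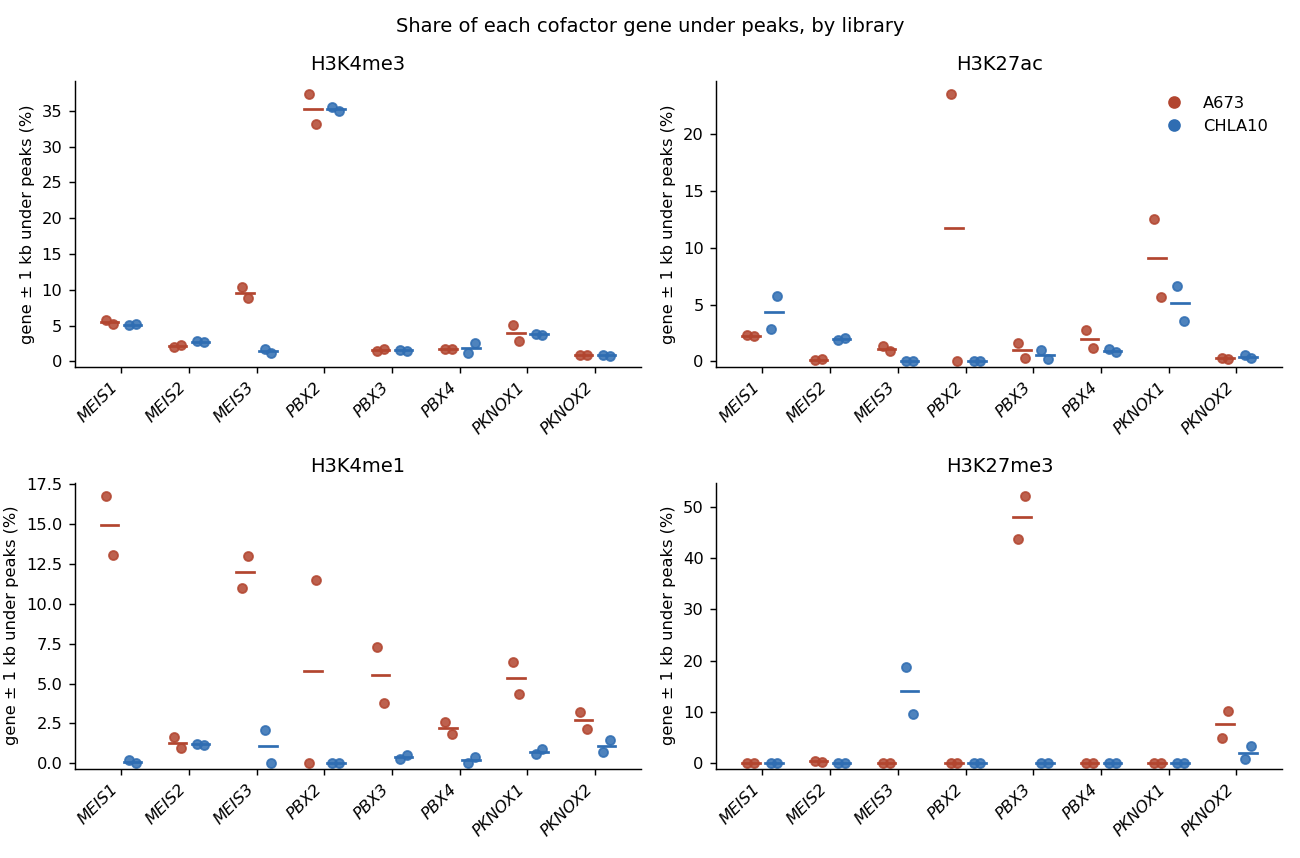
Covered share in percent (vertical axes) of each cofactor gene with 1 kb flanks in the 4 marks, with 1 point for each library, a bar at the mean of the 2 libraries, A673 in red on the left and CHLA10 in blue on the right. PBX3 stands alone in H3K27me3 with 43.8% and 52.1% in A673 and 0 in both CHLA10 libraries, and MEIS3 shows the opposite order in that mark with 0 in A673 and 18.7% and 9.59% in CHLA10.

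PBX3, a partner of HOX and MEIS proteins, showed the widest difference of the 8 genes. It spans chr9:125747373-125967377 on the plus strand, 220005 bp, with its annotated start at 125748183. H3K27me3 covered 43.8% and 52.1% of it in A673 (mean 48.0% ± 5.88, SD, n = 2) and none of it in either CHLA10 library. A difference this large or larger was found at 271 of the 19970 genes and at 14 of the 3351 long genes, PBX3 included. The A673 libraries placed 10 and 12 broad peaks across the gene, from 125747994 to 125942935 and from 125747911 to 125952054. The longest, 42678 and 40899 bp, lay at 125881616-125924293 and 125882404-125923302. Their −log10 q values, a measure of the caller's confidence in which higher is stronger, ran from 2.51 to 4.46 and from 2.11 to 4.17, against list medians of 2.91 and 2.65. In CHLA10 the nearest H3K27me3 peaks lay 62.7 and 138 kb away, beyond the 3′ end.

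The start of PBX3 carried H3K4me3 in both lines, with 1896 and 2276 bp peaks in A673 and 1037 and 1440 bp peaks in CHLA10. A separate H3K4me3 peak upstream of it was 353 and 262 bp long in A673 and 1288 and 1164 bp long in CHLA10. Within 1 kb of the start, H3K27me3 covered 1190 and 1273 of 2001 bp in A673 and none in CHLA10, so both marks were called at this start in A673, while H3K4me3 was called there without H3K27me3 in CHLA10. A further H3K4me3 site lay 141 to 142 kb into the gene in all 4 libraries, at 125889264-125890255 and 125889083-125890203 in A673 and at 125889528-125890516 and 125889282-125890518 in CHLA10. In A673 this site lay inside the longest H3K27me3 peak, and H3K4me1 peaks of 3943 and 4127 bp overlapped its upstream edge. In CHLA10 an H3K27ac peak ended at 125886860 in both libraries, upstream of the same site. The PBX3 covered share of H3K4me1 was 7.28% and 3.80% in A673 and 0.244% and 0.501% in CHLA10. The ranges of the H3K27ac covered share overlapped between the lines, at 1.61% and 0.343% in A673 and 0.980% and 0.229% in CHLA10. Of these A673 peaks, 0 of 7 and 0 of 3 overlapped a CHLA10 peak. The same 0 of 7 and 0 of 3 overlapped a peak of the other A673 library, so this does not separate the lines.

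A673 had HOXD13 peaks in PBX3 at 125752293-125752459 (−log10 q 35.4), 4.19 kb after the start, and at 125755406-125755566 (−log10 q 7.01), 7.30 kb after it. The first overlapped H3K27me3 in 1 of 2 A673 libraries and the second in both. CHLA10 had no HOXD13 peak within 500 kb of PBX3, and its nearest was 1884 kb away. By Euclidean distance of the covered share over the 18 lists, the genes most like PBX3 and at least 500 kb from it were SEMA5B and JAZF1, at distances of 7.23 and 8.08 percentage points, against a median of 69.1 over all genes. H3K27me3 covered 39.5% and 54.5% of SEMA5B and 41.1% and 53.8% of JAZF1 in A673. These lists were part of the distance, so values near those of PBX3 follow from the choice.

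**Figure D2:**
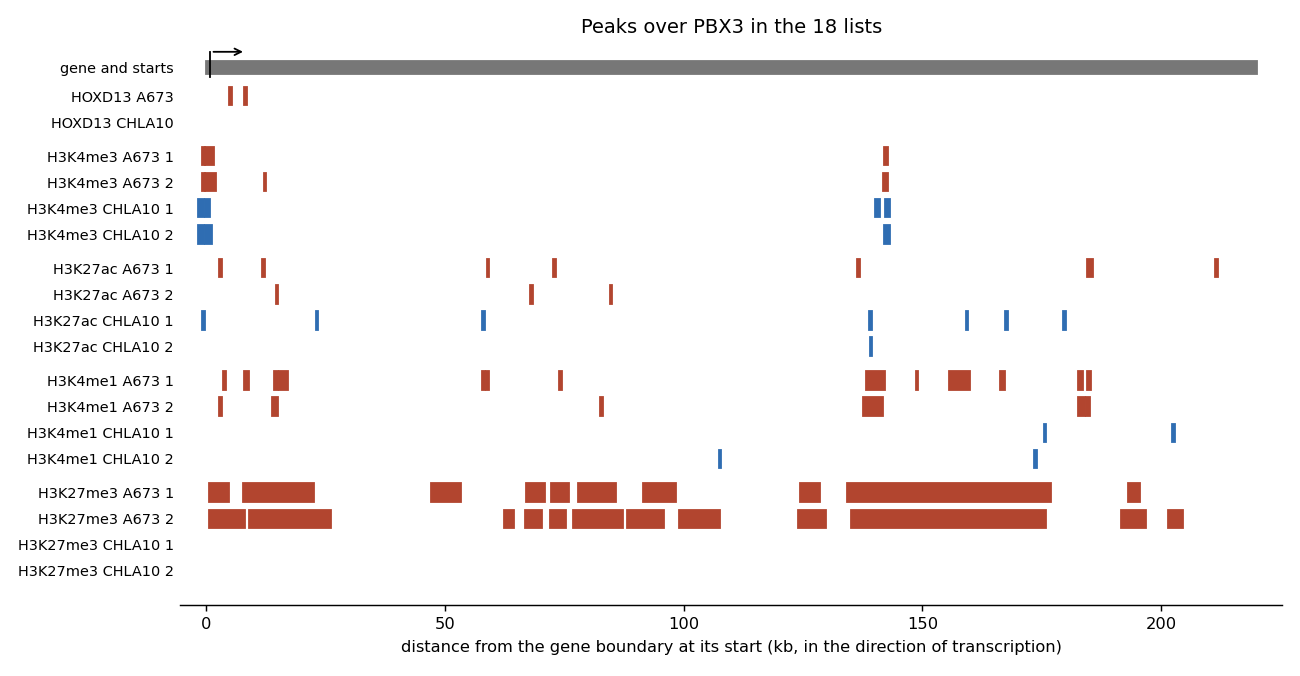
Peaks of the 18 lists over PBX3 and its flanks, plotted by distance from the gene boundary at its start in kb (horizontal axis), with 1 row for each library, A673 in red above CHLA10 in blue and the annotated start as an arrow. H3K27me3 fills 43.8% and 52.1% of the region in the A673 rows and none in the CHLA10 rows, while the H3K4me3 peak at the start and the one 141 to 142 kb after the arrow are in all 4 rows.

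MEIS3, a MEIS gene and like the others a partner of PBX proteins, had H3K27me3 in CHLA10 instead, with more H3K4me3 and H3K4me1 in A673. It spans chr19:47403124-47422233 on the minus strand, 19110 bp, with annotated starts at 47422233 and 47419527. Its H3K4me3 covered share was 10.3% and 8.88% in A673 and 1.77% and 1.18% in CHLA10, and the lines did not overlap. The A673 peaks were 2181 and 1874 bp long (−log10 q 73.2 and 30.5) and began at the downstream start, while the upstream start, whose promoter is printed above, had no H3K4me3 in any library. The CHLA10 peaks were 373 and 249 bp long (−log10 q 6.07 and 7.14), at 47418054-47418426 and 47418734-47418982, and did not overlap each other. A difference this large or larger was found at 768 of all genes, MEIS3 included.

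H3K27me3 at MEIS3 covered 18.7% and 9.59% in CHLA10, against 0 in both A673 libraries, where the nearest peaks were 479 and 480.5 kb away. The CHLA10 peaks lay at 47415833-47419780 and 47417158-47419182, the first across the downstream start and the other just inside the gene from it, and each CHLA10 H3K4me3 peak lay inside both. They were weak, with −log10 q 2.81 and 2.15 against list medians of 2.96 and 3.21, and 97.2% of the second list was at least as strong. H3K4me1 in A673 lay between the 2 starts in 1 library, at 47419561-47421885, and ran on across the upstream start in the other, at 47419561-47422306. It covered 11.0% and 13.0%, against 2.10% and 0 in CHLA10. The A673-only H3K27ac call rested on short peaks of 281 and 194 bp that did not overlap each other. When lists were reduced to their strongest 50% of peaks, the MEIS3 covered share was 0 in all libraries for H3K4me3, H3K27ac and H3K27me3, and these differences were lost. A673 had a HOXD13 peak inside MEIS3 at 47411270-47411386 (−log10 q 32.9), 8.20 kb past the downstream start, and no mark of either line overlapped it. The gene most like MEIS3 was LY6S, at a distance of 9.85 percentage points, against a median of 30.5.

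**Figure D3:**
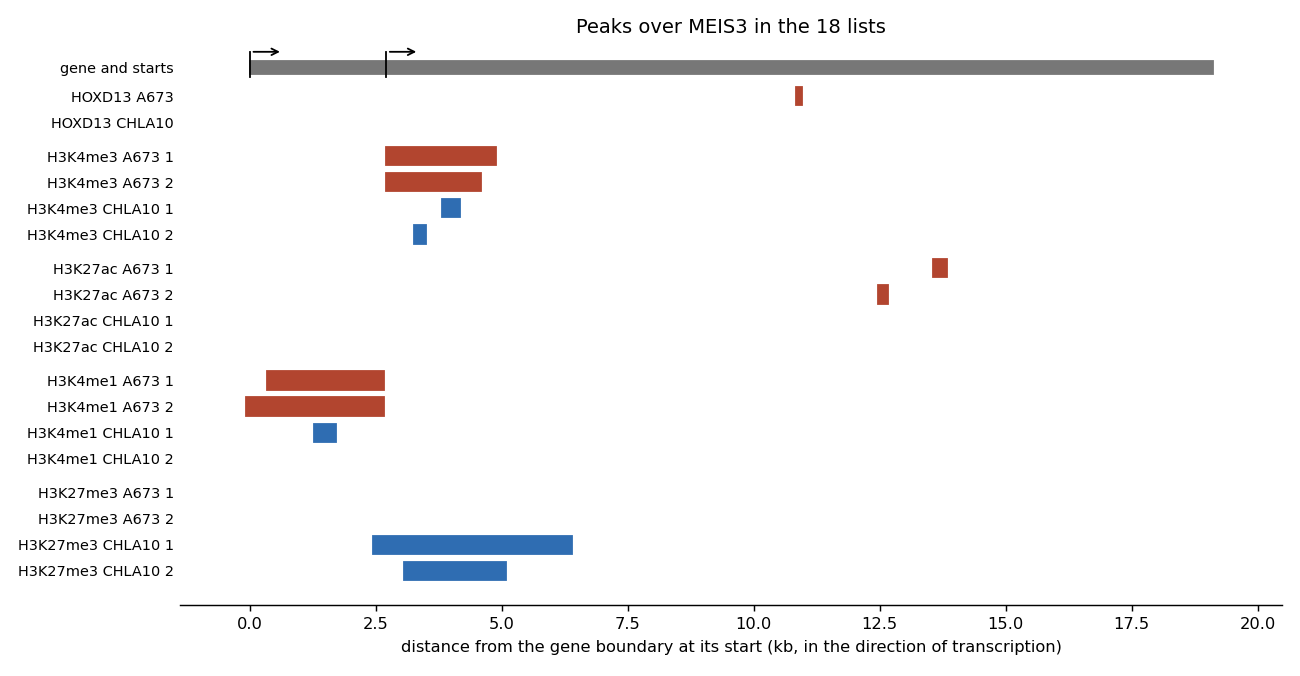
Peaks of the 18 lists over MEIS3, by distance from the gene boundary at its start in kb along the direction of transcription (horizontal axis), with 1 row for each library, A673 in red above CHLA10 in blue and the 2 annotated starts as arrows. The A673 rows hold H3K4me3 peaks of 2181 and 1874 bp that begin at the downstream start and no H3K27me3, and the CHLA10 rows hold H3K4me3 peaks of 373 and 249 bp further into the gene, inside H3K27me3 peaks of 3948 and 2025 bp.

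MEIS1, a cofactor of HOX proteins best known from leukaemia, had the longest H3K4me3 peaks of the family. It spans chr2:66435125-66573869 on the plus strand, 138745 bp. The peak over its start was 9221 and 8679 bp long in A673 and 8459 and 8675 bp in CHLA10, against list medians of 1945 and 1809 bp in A673 and 1487 and 1537 bp in CHLA10. By length it ranked 25 of 17909 and 36 of 18497 in A673, and 46 of 21384 and 42 of 21164 in CHLA10. Its covered share in H3K4me3 overlapped between the lines, at 5.80% and 5.24% in A673 and 5.02% and 5.28% in CHLA10. The promoter printed above lies inside it in all 4 libraries.

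H3K27ac at that start was longer in CHLA10. Within 1 kb of the start it covered 336 and 0 of 2001 bp in A673, and 1427 and 2001 bp in CHLA10. Over the gene, H3K27ac covered 2.33% and 2.22% in A673 and 2.85% and 5.80% in CHLA10, and the lines did not overlap in this share. Of 5 and 5 A673 peaks none was in both A673 libraries, and 2 of the first 5 overlapped peaks of each CHLA10 library. H3K4me1 covered 16.8% and 13.1% in A673, in 17 and 9 peaks, against 0.180% and 0 in CHLA10, in 1 and 0 peaks. A difference this large or larger was found at 815 of all genes and 98 of the 3351 long genes. H3K27me3 was called in MEIS1 in none of the 4 libraries. Its nearest peaks were 51.5 and 52.5 kb away in A673 and 3382 and 3385 kb away in CHLA10.

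About 100 kb into MEIS1, the longest H3K4me1 peaks of the gene lay at 66534650-66540865 and 66534436-66540407 in A673, and 2 of 3 A673 HOXD13 peaks of the gene fell inside them. These HOXD13 peaks were at 66536028-66536195 (−log10 q 22.4) and 66536901-66537284 (−log10 q 3.06), and the third, at 66569772-66569917 (−log10 q 11.0), also overlapped H3K4me1 in both A673 libraries. H3K27ac overlapped this region in all 4 libraries, at 66534569-66535539 and 66536659-66537192 in A673 and at 66534528-66535649 and 66535110-66536653 in CHLA10, and CHLA10 had no HOXD13 peak in the gene. Past the 3′ end, where the long noncoding RNA gene LINC01798 begins at 66574030, H3K4me3 peaks of 4949 and 7710 bp (−log10 q 172.5 and 123.04) were called in A673. Within 1 kb of the MEIS1 boundary, CHLA10 had a peak of 518 bp (−log10 q 5.92) in 1 library, and the 7710 bp A673 peak, which runs further into LINC01798, overlapped H3K4me3 of both CHLA10 libraries. BACH1 and SOX13 were most like MEIS1, at distances of 4.63 and 4.73 percentage points, against a median of 24.9.

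**Figure D4:**
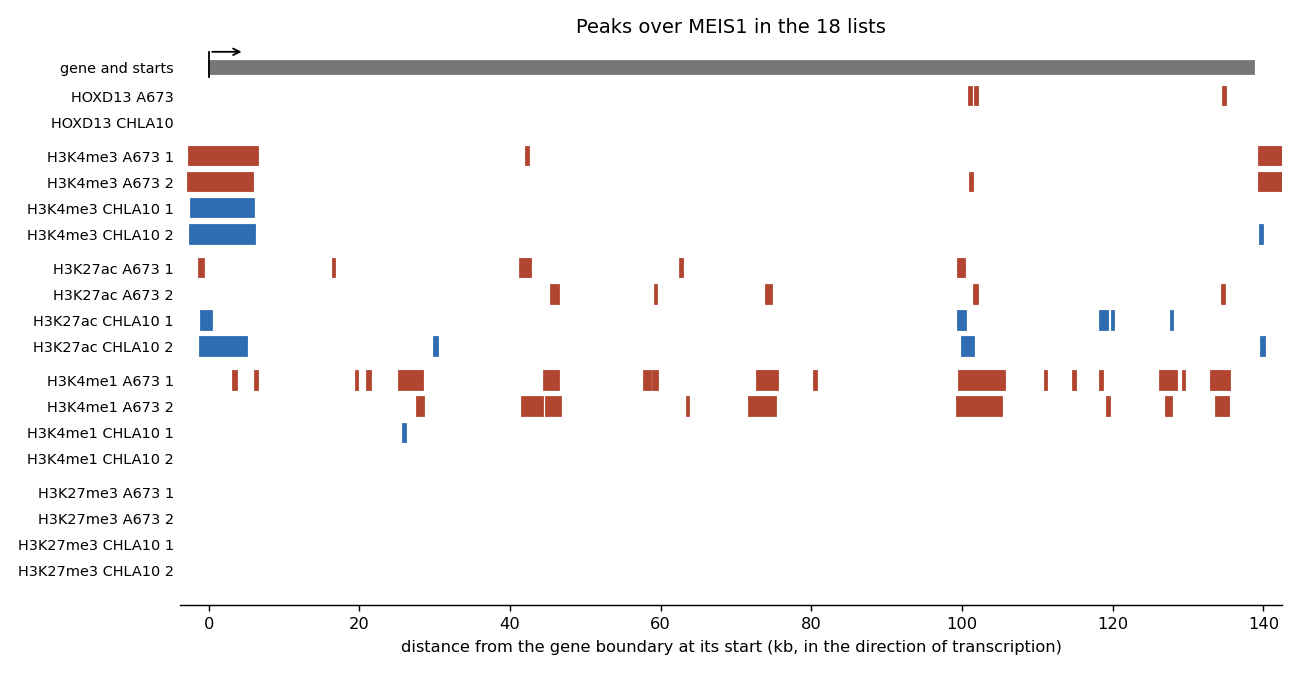
Peaks of the 18 lists over MEIS1 and its flanks, by distance from the gene boundary at its start in kb (horizontal axis), with 1 row for each library, A673 in red above CHLA10 in blue. The H3K4me3 peak over the start is 9221 and 8679 bp long in A673 and 8459 and 8675 bp in CHLA10, H3K4me1 has 17 and 9 peaks in A673 and 1 and 0 in CHLA10, and no row holds H3K27me3.

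MEIS2, another HOX cofactor and a gene of limb and neural crest development, had the second longest start peaks. It spans chr15:36889204-37101311 on the minus strand, 212108 bp. H3K4me3 over its starts was 5894 and 5829 bp long in A673 and 6399 and 6231 bp in CHLA10. H3K27ac covered 0.105% and 0.184% in A673 and 1.93% and 2.08% in CHLA10, with no overlap between the lines. At the upstream end of the gene, CHLA10 had H3K27ac at 37100256-37100533 and 37102207-37103153 in 1 library and 37098784-37102683 in the other. The first library had 0 bp of it within 1 kb of either start. The other had 913 bp around the downstream start and 1323 bp around the upstream start. The A673-only H3K27me3 call rested on the upstream boundary, since the peaks at 37101299-37110515 and 37101766-37113498 covered 0.473% and 0.255% of the gene and flanks and lay over the noncoding gene LOC124903465, which overlaps that end of MEIS2. No CHLA10 H3K27me3 peak was within 500 kb of MEIS2, the nearest being 1460 and 718 kb away. The H3K4me1 covered share overlapped between the lines, at 1.63% and 0.938% in A673 and a mean of 1.17% in CHLA10. MAP3K9 and NPEPPS were most like MEIS2, at distances of 1.36 and 1.58 percentage points.

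PBX2, PBX4 and PKNOX1, of which PBX2 and PKNOX1 are known for broad expression, held no H3K27me3 in any library. PBX2 (chr6:32184733-32190202, minus strand, 5470 bp) had H3K4me3 over 37.3% and 33.2% of the gene and flanks in A673 and 35.5% and 34.9% in CHLA10. Its H3K27ac covered 23.5% and 0 in A673 and 0 in both CHLA10 libraries, so that the value rested on 1 library. The neighbours AGER and GPSM3 lie within 1 kb, and peaks there cannot be assigned to 1 gene. PBX4 (chr19:19561713-19618687, minus strand, 56975 bp) had weak H3K4me3 at its start in all 4 libraries, with −log10 q of 6.68 and 10.9 in A673 and 6.88 and 10.8 in CHLA10. Its H3K27ac covered 2.77% and 1.16% in A673 and 1.12% and 0.792% in CHLA10. The lines did not overlap, but 1.16% and 1.12% lie close together, and the A673 libraries differed more from each other. A site at 19591163-19591821 in CHLA10 overlapped H3K27ac of all 4 libraries. GMPR2 and TYMP were most like PBX2, and UBR4 and MSN most like PBX4.

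PKNOX1, which pairs with PBX proteins in place of MEIS, spans chr21:42974562-43033931 on the plus strand, 59370 bp. Its H3K27ac covered share overlapped between the lines, at 12.6% and 5.70% in A673 and 6.64% and 3.57% in CHLA10. A site at 43024587-43029246 and 43025230-43026185 in A673 lay at 43024511-43026186 and 43024457-43026648 in CHLA10, near the 3′ end of the gene. H3K4me1 covered 6.33% and 4.34% in A673 and 0.552% and 0.873% in CHLA10. ATP6V0A1 and LAMB1 were most like PKNOX1.

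PKNOX2, its close relative, spans chr11:125164751-125433389, 268639 bp, with the strand not given in the annotation used. It was the member with H3K27me3 in all 4 libraries, at 4.93% and 10.2% in A673 and 0.774% and 3.30% in CHLA10. The peaks of the lines lay at different places in this gene, and 0 of 4 and 0 of 5 A673 H3K27me3 peaks overlapped one in CHLA10. Within A673, 3 of those 4 and 3 of those 5 overlapped a peak of the other library. The same overlap over all genes is not given here. H3K4me3 covered 0.916% and 0.857% in A673 and 0.904% and 0.777% in CHLA10. PDE8B and CPED1 were most like PKNOX2.

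The HOXD13 lists held 27 peaks within 500 kb of the 8 genes in A673 and 8 in CHLA10, with a median per gene of 2.5 in A673 and 0.5 in CHLA10. The medians over all genes were 2 in A673 and 0 in CHLA10. At least 1 peak was within 500 kb of 7 of 8 members in A673, against 81.3% of all genes, and of 4 of 8 in CHLA10, against 35.7%. A peak lay over the gene or within 1 kb at 4 of 8 members in A673, MEIS1, MEIS3, PBX3 and PKNOX2, against 12.2% of all genes and 41.2% of long genes. In CHLA10 this was so at 0 of 8, against 3.81% of all genes and 15.7% of long genes. The 27 and 8 peaks come from lists of 7160 and 2099 peaks. With the A673 list cut to as many peaks as the CHLA10 list, the counts were 11 and 8. The part that list size has in these counts, and in the counts by gene below, was not tested. HOXD13 has 1 library per line, so these differences have no replicate check.

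By gene, MEIS1 had 9 HOXD13 peaks in its window in A673, and 3.67% of all genes had as many or more. In CHLA10 it had 2, and 14.8% of all genes had as many or more. MEIS3 and PBX2 had 5 each, PBX3 had 3, PKNOX1 and PKNOX2 had 2 each, PBX4 had 1 and MEIS2 had 0 in A673. In CHLA10, MEIS2 had 3 (6.53% of all genes had as many or more), PKNOX1 had 2, PKNOX2 had 1 and the other 4 had 0. MEIS2 was thus the 1 member of 8 with more peaks in CHLA10 than in A673, and PKNOX1 had the same number in both.

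The single peak that the lines shared near these genes lay 443 kb upstream of MEIS1, at 65991400-65991989 in A673 (−log10 q 75.7, rank 72 of 7160) and 65991318-65991935 in CHLA10 (−log10 q 240.9, rank 4 of 2099). It overlapped H3K27ac in both CHLA10 libraries and no mark in A673, and MEIS1 is the nearest protein-coding gene. Thus 1 of 27 A673 peaks was shared (3.70%, exact 95% interval 0.0937% to 19.0%), against 7.23% of the rest of the A673 list. In CHLA10 it was 1 of 8 (12.5%, 0.316% to 52.7%), against 24.1% of the rest of that list. Both intervals cover counting error only and hold the share of the rest, so no difference in sharing was detectable at this number of peaks.

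**Figure D5:**
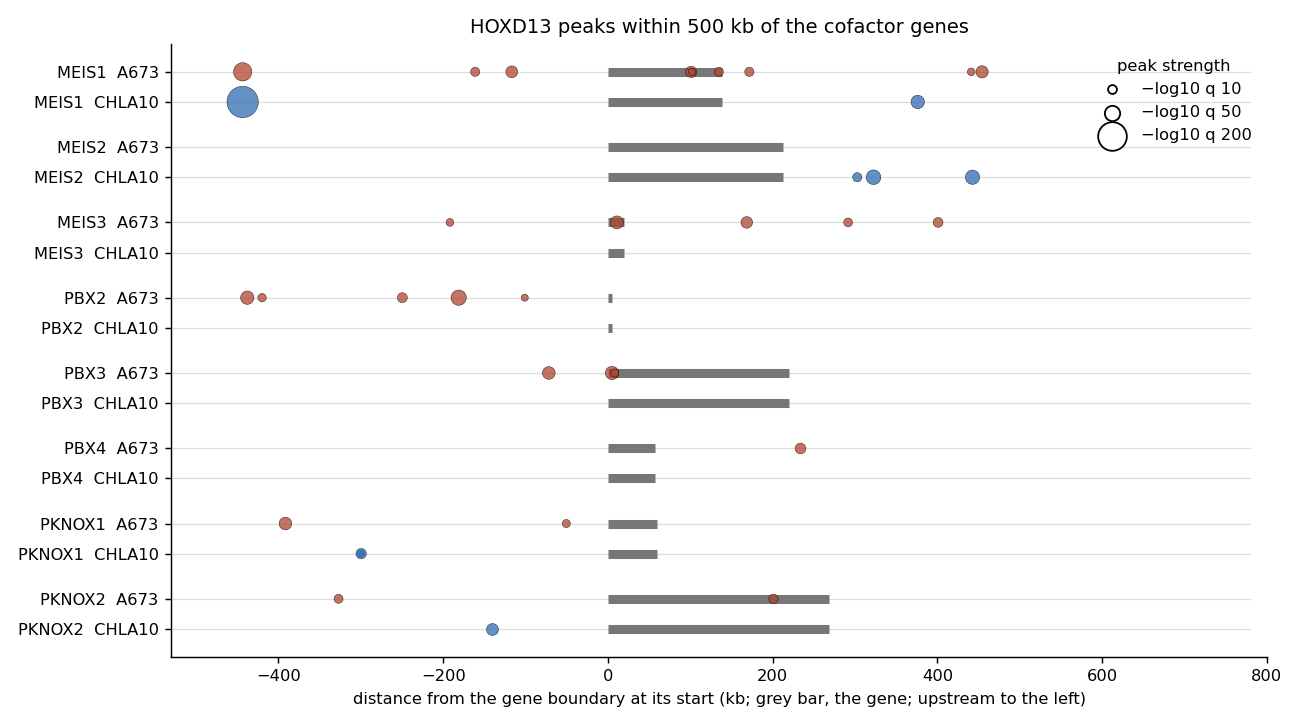
HOXD13 peaks within 500 kb of each cofactor gene, by distance from the gene boundary at its start in kb (horizontal axis, by coordinate for PKNOX2), with A673 in red above CHLA10 in blue, the gene as a grey bar and the area of a point growing with the −log10 q of the peak. A673 has 27 peaks and CHLA10 has 8, and the largest points are the shared peak 443 kb upstream of MEIS1.

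The strongest HOXD13 peak of each window lay nearest to the cofactor gene itself at MEIS1, MEIS3, PBX3 and PKNOX2 in A673 and at MEIS1 in CHLA10. Elsewhere it lay in or nearest to another gene. In A673 these were TSBP1 for PBX2 (−log10 q 49.7, 181 kb away, in the class II region of the major histocompatibility complex), GATAD2A for PBX4 (19.2, 176 kb away) and SLC37A1 for PKNOX1 (30.7, 391 kb away). In CHLA10 they were CDIN1 for MEIS2 (44.6, 110 kb away), PDE9A for PKNOX1 (17.6, 299.5 kb away) and CCDC15 for PKNOX2 (26.3, 141 kb away). All 3 CHLA10 peaks near MEIS2 lay inside CDIN1, and A673 had none within 500 kb of it.

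Of the 27 A673 HOXD13 peaks, 10 and 10 overlapped H3K4me1 of the 2 A673 libraries (37.0%), against 39.3% and 32.4% of the rest of the list. H3K27ac overlapped 3 and 5 of them (11.1% and 18.5%), against 18.5% and 14.9% of the rest, and H3K4me3 overlapped 3 and 3 (11.1%), against a mean of 8.87%. H3K27me3 overlapped 1 and 4 (3.70% and 14.8%), against 2.94% and 3.84%. Of the 8 CHLA10 peaks, 3 and 3 overlapped H3K27ac (37.5%), against 50.5% and 44.4% of the rest, and 1 and 1 overlapped H3K4me3 (12.5%), against 8.99% and 9.42%. H3K4me1 and H3K27me3 overlapped 0 of the 8, against 8.46% and 7.60% of the rest for H3K4me1 and 0.478% and 0.287% for H3K27me3, and a count of 0 among 8 peaks does not separate them from the rest. Of the 4 A673 peaks under H3K27me3, 2 lie in PBX3.

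The wider list of partners was chosen as 39 HOX genes, 9 other TALE genes and PBXIP1, which encodes a PBX-binding protein. Of the 39 HOX genes, 25 had H3K4me3 in all 4 libraries, against 66.7% of all genes, and 9 had H3K27me3 in all 4, against 10.3%. H3K27me3 was in A673 only at 4 HOX genes, HOXA10, HOXA11, HOXA13 and HOXD1, against 5.1% of all genes, and in CHLA10 only at 0, against 3.61%. At HOXA13 it covered 100% in both A673 libraries and 0 in CHLA10. HOXD13, the gene of the profiled factor, had H3K4me3 over 41.7% and 41.1% in A673 and 56.7% and 56.7% in CHLA10, and H3K27ac in all 4 libraries. H3K4me3 was in A673 only at HOXD10 (89.4% and 100%, against 0 in CHLA10; 1.68% of all genes) and in CHLA10 only at HOXC12 (2.4% of all genes). H3K27ac was in A673 only at HOXA3 and HOXD8, against 8.66% of all genes. It was in CHLA10 only at HOXB2, HOXB13 and HOXD12, against 4.81% of all genes, and covered 0 of HOXD12 in A673 and 42.5% and 55.5% in CHLA10. H3K4me1 was in A673 only at 10 HOX genes, against 16.3% of all genes, among them HOXC6 and HOXC10, and also at TGIF2, IRX4 and PBXIP1, and in CHLA10 only at none of the listed genes. Of the 9 other TALE genes, MKX had H3K27me3 in A673 only, at 40.4% and 62.5%, and IRX1 and IRX2 had it in CHLA10 only, IRX2 at 58.7% and 67.5%. In A673, HOXD13 peaks lay over 4 of the 39 HOX genes, HOXB13, HOXC4, HOXC5 and HOXC6, against 12.2% of all genes. They also lay over 2 of the 9 other TALE genes, TGIF1 and TGIF2, and over PBXIP1. In CHLA10 they lay over none of the 39 HOX genes, 9 other TALE genes and PBXIP1, against 3.81% of all genes. HOXC4, HOXC5 and HOXC6 overlap, so that 1 peak can count for several of them.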

How the data were processed

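CUT&RUN peak lists of HOXD13 (1 library per line) and 4 histone marks (2 per line) were used as deposited by the authors. The submitters' processing notes list hg38 as the genome build, and among the tools Bowtie2, bedtools, MACS2 and SEACR 1.2. Per the peak names in the deposited lists, peaks were called per library, HOXD13 and the marks other than H3K27me3 against IgG, and H3K27me3 as broad peaks without a control. The deposited columns give each peak a score, a fold enrichment (a ratio over the caller's background), a −log10 p-value and a −log10 q-value, all the authors' own, and no deposited q-value is above 0.01. The peak lists are subsets of longer ones by a filter not given in the sources used here, and counts of reads are not among the values used.

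Genes came from RefSeq (GRCh38.p14), with starts and strands from its promoter table. A gene was called for a mark where a peak overlapped it, or the 1 kb beside it, by at least 1 bp. A call in 1 line only needed both of its libraries and neither of the other line. The covered share is the percent of the gene with flanks under peaks. No test was run on these calls and shares: peak lists hold no counts to model, and an exact permutation test of 2 libraries against 2 cannot go below p = 0.33. Intervals of shares are exact (Clopper-Pearson). The code was tested on simulated peaks. The members, gene lists and motifs were chosen with earlier results of these data known. Named besides the members are the 2 genes most like each in covered share over the 18 lists (1 for MEIS3, where the other is not reported here), the gene nearest to the strongest HOXD13 peak of each window, and genes of the HOX and TALE lists called in 1 line only or holding a HOXD13 peak. Python 3.11.15, numpy 2.4.6, pandas 2.3.3, scipy 1.17.1 and matplotlib 3.10.9 were used. Alternatives were other flanks and windows, stricter or equally long lists, larger overlaps and leaving out 1 library.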

Additional observations from a re-analysis of the deposited data

How the results depend on the processing

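The mark calls were made in 7 settings of flank, gene region, list and overlap, the main setting included. PBX3 H3K27me3 was an A673-only call in 7 of 7 and MEIS3 H3K27me3 a CHLA10-only call in 5. MEIS3 H3K27ac and MEIS2 H3K27me3 were A673-only calls in 4 each. Of 3 A673-only pairs, 1 was left within 1 kb of the starts. Leaving out 1 library gave 4 to 5 A673-only pairs, with 5 reached without CHLA10 replicate 1. CHLA10-only pairs were 2 in the upper 50% of each list by q, and pairs in all 4 libraries were 7 within 1 kb of the starts and 10 in the upper 50%. Near the cofactor genes, A673 had 10 HOXD13 peaks within 100 kb, 14 in the upper 50% and 11 with as many A673 as CHLA10 peaks in all, and CHLA10 had 1 within 100 kb, 5 within 250 kb and 5 in the upper 50%. A mark in both libraries was on 7.41% (H3K27ac) and 29.6% (H3K4me1) of A673 HOXD13 peaks and 25.0% (H3K27ac) of CHLA10 ones. With 50% of the HOXD13 peak covered, CHLA10 shares were 6.25% (H3K4me3) and 25.0% (H3K27ac). The median covered share, A673 minus CHLA10, was 3.17 percentage points for H3K4me1 without flanks, against 4.90 with them, and leaving out 1 library gave 3.53 (without A673 replicate 1) to 5.04. For H3K27ac, at 0.69 with all libraries, that range was −0.0901 to 1.17, with the lowest value without A673 replicate 1. In the upper 50% of each list the MEIS3 difference was 0 in H3K4me3, H3K27ac and H3K27me3. The direction of some shifts follows from the settings. Leaving out 1 library can only keep or raise the pair counts. Smaller windows or shorter lists can only keep or lower the HOXD13 peak counts. A mark required in both libraries, or over 50% of the peak, can only keep or lower its share. The cause of the other shifts was not tested. No paired analysis was possible because the results come from no test, and the replicate numbers name libraries of different lines. Depth behind a peak is unknown, so a missing peak is a call below the authors' threshold, not the absence of a mark.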
